A study of Homo sapiens with 2 samples.

Results

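The regions described here are the ASH1 peaks of human chromosome 17 in K562 cells. They are all rows of the deposited hg19 peak lists that lie on chromosome 17: 38 of 910 peaks in replicate 1 and 189 of 4646 in replicate 2, or 227 of 5556 peaks in all. K562 is a leukaemia cell line derived from chronic myelogenous leukaemia, for which no treatment or second condition is given. The cells were fixed with formaldehyde, which links proteins to DNA. Chromatin was precipitated with in-house rabbit antibodies raised against the C-terminal end of ASH1 and then sequenced, a method known as ChIP-seq. The 2 samples form 1 group, with antibody batch 1 used for replicate 1 and batch 3 for replicate 2, so a difference between the lists cannot be told apart from a difference between antibody batches. The depth of both libraries is unknown and no control library is analysed here. Where only 1 list has a peak, the site was not detectable in the other list under its own calling limit, which is no evidence of absence.

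ASH1 (gene ASH1L) is a histone methyltransferase of the trithorax group, whose SET domain acts on lysine 36 of histone H3. Trithorax proteins are known for keeping developmental genes active, with the HOX clusters as the classical targets, and for opposing the Polycomb group. Chromosome 17 is a gene-dense chromosome. Its band 17q21.32 carries the HOXB cluster, and 17q25.3, the outermost band of the long arm, carries many housekeeping-type genes such as ACTG1, which encodes a cytoplasmic actin, and FASN, which encodes fatty acid synthase. These genes are named as background only. No peak was assigned to a gene, because no hg19 gene annotation was used here, and no sequence is printed for the same reason.

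Chromosome 17 held more ASH1 peaks than its length in both lists, and in replicate 2 they were densest at the distal end of the long arm. Chromosome 17 makes up 2.62% of the length of the assembled chromosomes and held 4.20% of replicate 1 and 4.11% of replicate 2 peaks. That is 1.60 times its share in replicate 1 (95% exact binomial interval 1.14 to 2.18) and 1.57 times in replicate 2 (1.36 to 1.80), a mean of 1.58 ± 0.0234 (SD, n = 2 lists). Both passed the exact binomial test, with adjusted p = 0.0118 and 1.36e-08 over 24 chromosomes. In each list 33.3% of chromosomes were called above their length share, and chromosome 17 ranked 6th of them by fold in replicate 1 and 5th in replicate 2. The lists did not differ in the share they placed on chromosome 17 by Fisher's exact test (adjusted p = 0.97), a comparison in which 33.3% of chromosomes were called. Peaks are not independent of their neighbours, so all p-values here describe the 2 lists and not the spread between experiments.

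With 17q25.3 left out of both the peaks and the length, a calculation added after the lists had been seen, the excess of the chromosome no longer passed the test. The remaining 28 replicate 1 peaks stood at 1.28 times their share (0.857 to 1.84, exact test, adjusted p = 0.24) and the remaining 115 replicate 2 peaks at 1.04 times (0.863 to 1.25, adjusted p = 0.72). The band is denser than the chromosome in both lists, so leaving it out had to lower the fold. No other chromosome was treated in this way. Neither interval excludes a smaller excess in the rest of the chromosome. Copy number was not measured. K562 cells have an abnormal karyotype, and its part in these shares was not tested. Calls for the whole chromosome were also lost in some shorter lists. With scores of at least 70, replicate 1 stood at 1.81 times (exact test, adjusted p = 0.065), and with replicate 2 limited to its 910 highest peaks it stood at 1.27 times (adjusted p = 0.26). In the upper 50% of the replicate 2 list by score the call was kept, at 1.60 times (exact test, adjusted p = 3.14e-05).

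**Figure D1:**
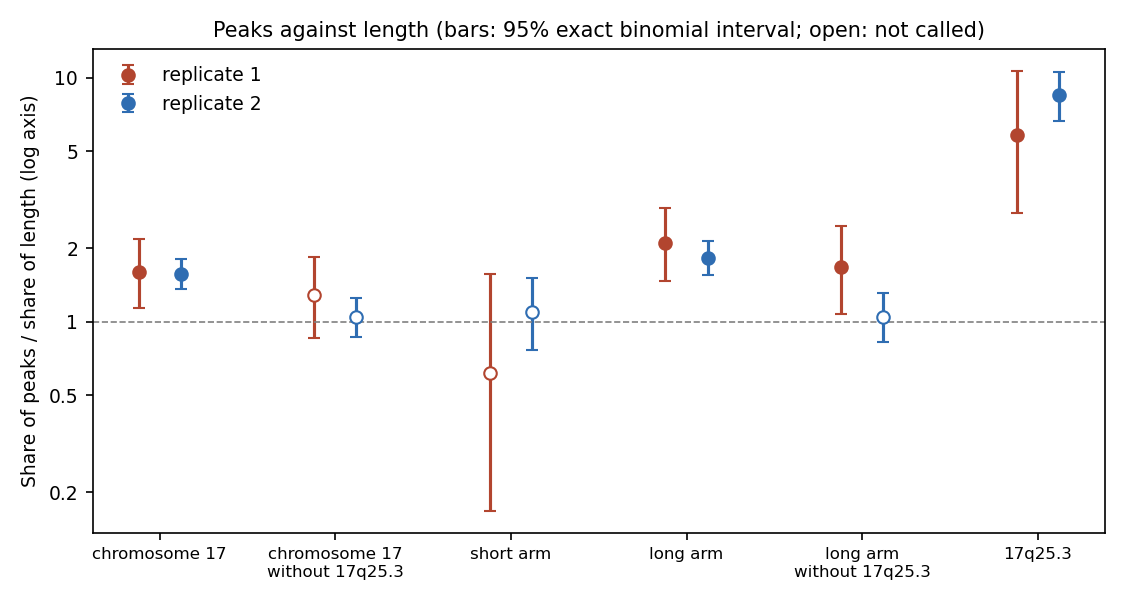
Share of ASH1 peaks divided by share of length (log axis) for chromosome 17, its arms and band 17q25.3, in replicate 1 (red) and replicate 2 (blue). Bars are 95% exact binomial intervals, filled points passed the exact test after adjustment; 17q25.3 stands at 5.80 and 8.45 times, while chromosome 17 without it lies at 1.28 and 1.04 times, with open points.

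The arms differed. The long arm, from position 25800001 outward, held 34 peaks of replicate 1 and 150 of replicate 2, which was 2.10 times (1.46 to 2.91) and 1.82 times (1.55 to 2.13) what its length would give. Both were called by the exact binomial test over the 72 arms and centromere bands (adjusted p = 0.000603 and 5.61e-11), where 15.3% of the regions were called in replicate 1 and 25% in replicate 2. The short arm, which ends where the centromere band begins at position 22200001, held 4 peaks of replicate 1 and 36 of replicate 2, at 0.616 times (0.168 to 1.57) and 1.09 times (0.766 to 1.51), and was called in neither list. Against the length of chromosome 17 alone, outside its centromere band, the short arm was below its share in both lists, at 0.368 times (exact test, adjusted p = 0.030) and 0.677 times (adjusted p = 0.00667). The long arm without 17q25.3 stood at 1.67 times in replicate 1 (1.08 to 2.47, exact test, adjusted p = 0.048) and at 1.05 times in replicate 2 (0.828 to 1.31, adjusted p = 0.74). Leaving out the dense band had to lower the long-arm fold too. Whether the lists differ there was not tested. The short-arm shares of the chromosome alone count the 17q25.3 peaks in the total, and were not computed without them. In replicate 2 the short arm, at 1.09 times, was not below the long arm without that band. In replicate 1 it was, at 0.616 times. For whole arms, 16.7% of regions differed between the lists, and neither arm of chromosome 17 was among them (Fisher's exact test, adjusted p = 0.91 for the short arm and 1 for the long arm).

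Band 17q25.3, from position 75300001 to the end of the chromosome at 81195210, was the most densely marked stretch of chromosome 17 in replicate 2. The band spans 7.26% of the chromosome and held 10 of its 38 replicate 1 peaks (26.3%, 95% Clopper-Pearson interval 13.4 to 43.1%) and 74 of its 189 replicate 2 peaks (39.2%, 32.2 to 46.5%). Against the whole genome this was 5.80 times its share of length in replicate 1 (2.79 to 10.6) and 8.45 times in replicate 2 (6.65 to 10.6), a mean of 7.13 ± 1.88 (SD, n = 2 lists). Both passed the exact binomial test over 862 bands, with adjusted p = 0.0007 and 5.12e-40. In replicate 1, 3.94% of bands were called above their share, and in replicate 2, 10.8% were. No other band of the genome held more replicate 2 peaks, and by fold 17q25.3 ranked 14th of 862 bands in replicate 2 and 28th in replicate 1. Among the 48 outermost bands of chromosome arms it ranked 10th by fold in either list. Calls were common among those outermost bands, with 14 of 48 above their share in replicate 1 and 33 of 48 in replicate 2.

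The replicate 1 call for 17q25.3 was lost in shorter lists, at a fold near that of the whole list. A score of at least 70 was reached by 3 of its 10 peaks, against 337 of 905 in the whole replicate 1 list (37.2%). With that limit the band stood at 4.67 times its share (exact test, adjusted p = 0.69). In the upper 50% of the replicate 1 list by score it stood at 4.66 times (exact test, adjusted p = 0.33). The replicate 2 call held when that list was limited to its 910 highest peaks, 12 of them in the band (7.02 times, exact test, adjusted p = 2.02e-05). The lists placed 1.10% and 1.61% of their peaks in 17q25.3, a difference that did not pass Fisher's exact test (adjusted p = 1, with 0.464% of bands called).

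Along the chromosome in 1 Mb bins of the peak midpoint, replicate 2 was called above its length share in 8 of 82 bins, all from 71 Mb outward. These were the bins that start at 71 and 72 Mb, with 8 peaks each (5.39 times, 2.33 to 10.6), and the 6 bins from 75 to 81 Mb. The run from 75 Mb held 14, 8, 11, 11, 12 and 18 peaks in order. The bin that starts at 80 Mb was the fullest of the chromosome and had 12.1 times the peaks its length would give (interval 7.19 to 19.1, exact test, adjusted p = 1.1e-11). It ranked 10th by fold of all 3113 bins of the genome, of which 4.98% were called above their share in replicate 2. The bins at 73 and 74 Mb, between the 2 stretches, were not called. In the upper 50% of the replicate 2 list by score the bins at 71, 72 and 76 Mb were no longer called, at 5.4, 5.4 and 2.7 times, and the other 5 were. At the low end, 26 bins held no replicate 2 peak and the median bin held 1. An empty bin of 1 Mb could not pass below its share in replicate 2 (exact test, unadjusted p = 0.41).

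In replicate 1 single bins held at most 3 peaks. None of its 82 bins was called by the exact binomial test, 8 had an unadjusted p under 0.05, all above their share, and 1.03% of bins of the genome were called. So few replicate 1 peaks are expected per bin that an empty bin could not pass below its share. With bins shifted by 0.5 Mb, 1 bin was called, from 78.5 to 79.5 Mb with 4 peaks (exact test, adjusted p = 0.020). With bins of 2 Mb, 1 was called too, from 78 to 80 Mb with 5 peaks (exact test, adjusted p = 0.015). Both lie within 17q25.3. For shifted bins and bins of 2 Mb, the share called over the genome was not computed. In all, 55 bins held no replicate 1 peak, and the longest empty stretch ran over 9 Mb from 18 to 27 Mb, across the centromere. Assembly gaps, in which no peak can be called, were not taken out of this stretch. Peaks of both lists, although not always overlapping ones, fell in 23 bins, 4 bins held replicate 1 peaks only, and 22 bins were empty in both lists.

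**Figure D2:**
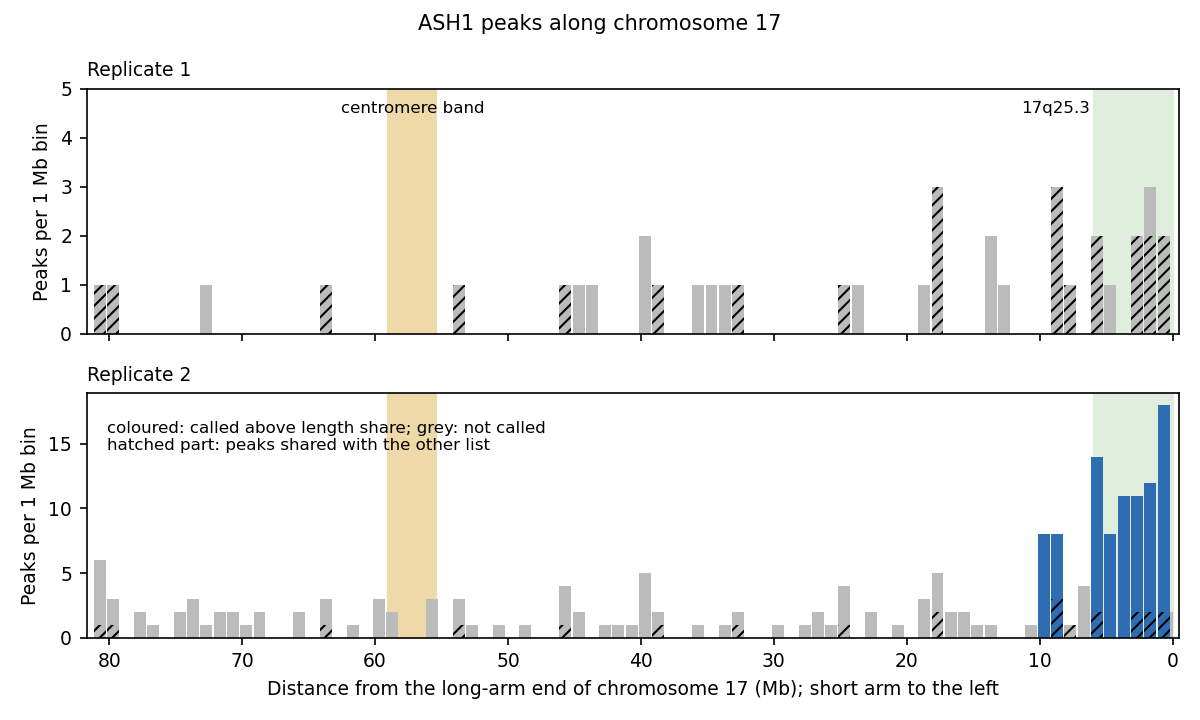
Number of peaks in each 1 Mb bin of chromosome 17 (vertical axis) against distance from the long-arm end in Mb, with replicate 1 above and replicate 2 below. Hatching marks shared peaks, blue marks the 8 replicate 2 bins called above their length share, all from 71 Mb outward, and the shaded areas are the centromere band and 17q25.3; the outermost bin is 0.195 Mb long.

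At the short-arm end the peaks were fewer. The outermost short-arm band, 17p13.3, held 2 peaks of replicate 1 and 9 of replicate 2, at 2.07 times (0.251 to 7.47) and 1.84 times (0.84 to 3.48), and was called in neither list (exact binomial test, adjusted p = 1 and 0.19). All 9 replicate 2 peaks lay in the outer part of that band, the innermost of them ending at position 1215220. The bin from the start of the chromosome to 1 Mb held 6 of them (4.04 times, exact test, adjusted p = 0.064). In shifted bins this end was called in replicate 2, from 0.5 to 1.5 Mb with 7 peaks (4.71 times, exact test, adjusted p = 0.017), and in bins of 2 Mb too, with all 9 peaks (3.03 times, adjusted p = 0.044). How many shifted bins or bins of 2 Mb were called over the genome was not computed. In 17p13.3 both replicate 1 peaks were shared with replicate 2.

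Among the inner bands, 17q25.1 and 17q24.1 stood out. The first band reached 3.63 times its length share with 21 peaks of replicate 2 (interval 2.25 to 5.54, exact test, adjusted p = 1.61e-05). It reached 3.51 times with 4 peaks of replicate 1 (interval 0.957 to 8.95, exact test, adjusted p = 0.42). All 4 of those replicate 1 peaks were shared. Band 17q24.1 reached 8.55 times its length share with 4 peaks of replicate 1 (interval 2.33 to 21.8, exact test, adjusted p = 0.035). It reached 2.95 times with 7 peaks of replicate 2 (interval 1.19 to 6.07, exact test, adjusted p = 0.051). In replicate 1, 2 of the 4 peaks were close neighbours inside 1 replicate 2 peak. With peaks closer than 10 kb merged the band stood at 6.70 times in replicate 1 and was not called (exact test, adjusted p = 0.22), while in replicate 2 it was called at 3.17 times (adjusted p = 0.043). In the lists as deposited, no other band of the chromosome was called above its share, and none below it, in either list. For replicate 1 too few peaks are expected in these bands for a call below the share.

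Band 17q21.32, home of the HOXB cluster, held 3 peaks in replicate 1 and 1 in replicate 2, and 0 of them were shared. The replicate 1 peaks scored 60.55, 83.27 and 74.31 and the replicate 2 peak 87.64. The band was called in neither list (exact binomial test, adjusted p = 0.53 and 0.46). Its share of the lists, 0.331% and 0.0218%, had an unadjusted p of 0.016 and an adjusted p of 0.497 in Fisher's exact test. The band is larger than the gene cluster, so these values do not place a peak at a HOXB gene.

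**Figure D3:**
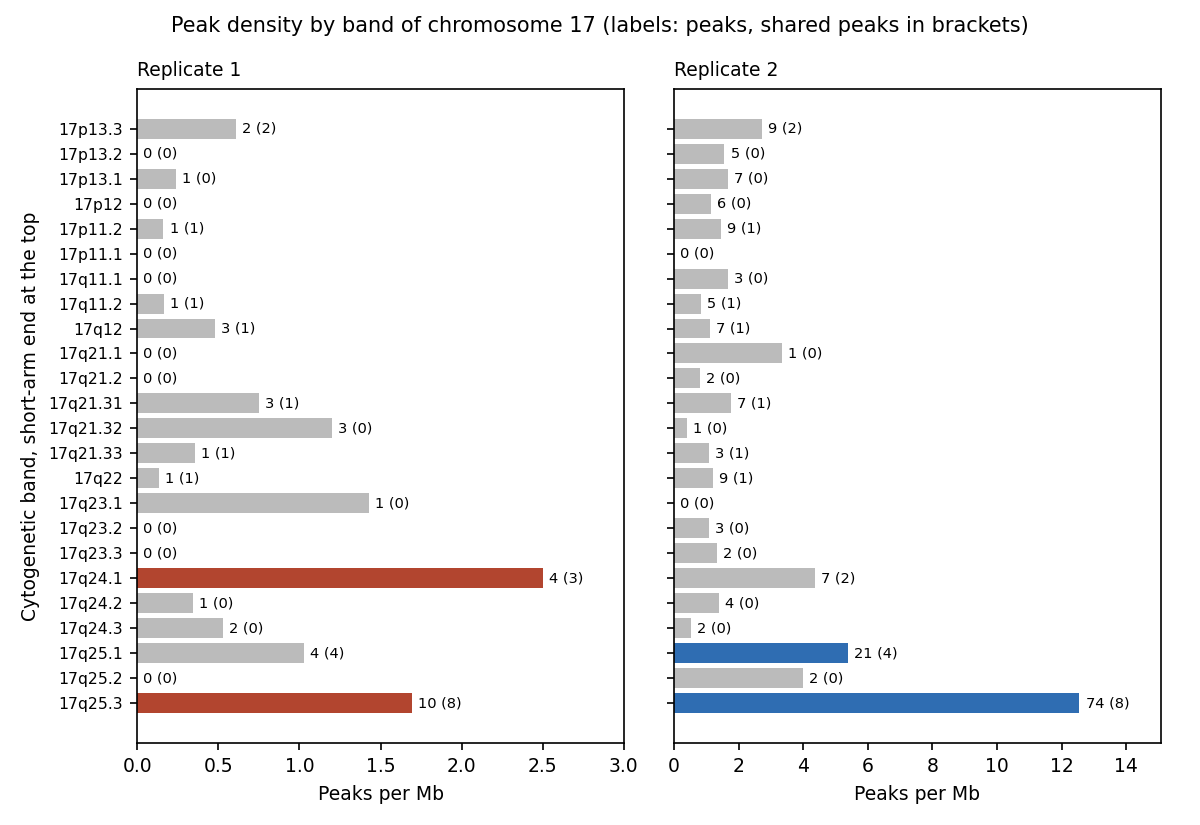
Peaks per Mb in each cytogenetic band of chromosome 17, ordered from the short-arm end at the top to the long-arm end, for replicate 1 (left) and replicate 2 (right, another scale). Labels give the number of peaks with the number shared in brackets, and coloured bars passed the exact binomial test; 17q25.3 held 10 and 74 peaks with 8 shared in each list, and 17q25.1 held 4 and 21.

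Antibodies of both batches marked a common set of 22 places on chromosome 17. An overlap of at least 1 bp with the other list was found for 23 of the 38 replicate 1 peaks (60.5%, Clopper-Pearson interval 43.4 to 76%), against 51.1% of the peaks on the other chromosomes (47.7 to 54.5%). In replicate 2, 22 of 189 peaks were shared (11.6%, 7.44 to 17.1%), against 9.92% elsewhere (9.05 to 10.8%). Neither share differed from that of the other chromosomes by Fisher's exact test (adjusted p = 0.46 and 0.67). In replicate 1, 20.8% of chromosomes were called in this comparison. In replicate 2, 0% were, with 6 of 24 at an unadjusted p under 0.05.

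Within the chromosome, 8 of the 10 replicate 1 peaks of 17q25.3 were shared (80%, 44.4 to 97.5%) and 15 of the 28 others (53.6%, 33.9 to 72.5%). The intervals overlap widely. In replicate 2 the shares were 8 of 74 (10.8%, 4.78 to 20.2%) and 14 of 115 (12.2%, 6.82 to 19.6%). On the short arm 3 of 4 replicate 1 peaks were shared, and on the long arm 20 of 34. These shares depend on the length of the lists. With replicate 2 limited to as many peaks as replicate 1, the chromosome's share went to 36.8% in replicate 1 and to 43.3% in replicate 2, and that of 17q25.3 in replicate 2 to 50%. With scores of at least 70 in both lists, the replicate 2 share was 5.82% on the chromosome and 2.70% in 17q25.3.

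Shared pairs were chosen by overlap, so near midpoints are built in. The midpoints of the 23 pairs lay a median of 110 bp and at most 1560 bp apart. The replicate 2 peak was the wider in all 23, and the replicate 1 peak lay wholly inside it in 19. In 22 pairs the score of replicate 2 exceeded that of replicate 1, with a median ratio of 4.65. The score is the authors' own value per peak, whose form is that of a p-value on a negative log10 scale, multiplied by 10. Such a value grows with depth as well as enrichment, so ratios between the lists are descriptive. In 12 of the 23 pairs the replicate 1 score was under 70, below the lowest replicate 2 score of 70.02, so in those pairs only replicate 2 could score higher.

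First among the shared sites was that in 17q21.33, at positions 48100697 to 48102912, with a score of 468.76 in replicate 1 and 1527.37 in replicate 2. It was the highest replicate 1 peak of the chromosome. The next site, in 17q21.31 (42667149 to 42668842), scored 118.27 and 798.57. The site in 17p13.3 (965280 to 967570) scored 125.27 and 582.34, and its replicate 1 peak, 2291 bp wide, was the widest of that list on chromosome 17. The 17q12 site (35117124 to 35118662) scored 175.76 and 408.54. These 4 sites, spread over both arms and all outside 17q25.3, were the only pairs on the chromosome in which both scores reached the 88.7th percentile of their list.

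A single replicate 2 peak in 17q24.1 (63965112 to 63968232, 3121 bp, score 651.23) spanned 2 replicate 1 peaks, 63965387 to 63966528 with a score of 60.71 and 63967088 to 63967836 with a score of 70.09. That is why 23 replicate 1 peaks met 22 replicate 2 peaks. The 17p11.2 site (17942066 to 17942996) was the only shared site with the higher score in replicate 1, at 180.78 against 151.94. In 17q25.1 the site from 72723739 to 72724873 scored 77.36 and 378.42, and the site from 72461025 to 72462237 scored 80.82 and 211.71.

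By median, the shared sites of 17q25.3 ranked near the middle of the replicate 1 list and high in the replicate 2 list. The site from 79498178 to 79500050 had a score of 59.47 in 1 list and 911.46 in the other, the largest ratio on the chromosome at 15.3. The site from 80217847 to 80218855 scored 68.01 and 482.28, and that from 75824590 to 75825514 scored 80 and 345.06. Over the 8 pairs of the band the replicate 1 score ran from 53.73 to 80, with a median at the 44.4th percentile of the replicate 1 list. The replicate 2 score ran from 154.52 to 911.46, with a median at the 90.9th percentile of the replicate 2 list. For the pairs in the rest of the chromosome the medians lay at percentiles 70.1 and 86.2. A replicate 2 peak of 17q24.1 is in 2 of these pairs. Over the 14 distinct replicate 2 peaks the median lay at percentile 81.9. A high replicate 2 rank was common to both places. The median ratio was 7.57 in the band and 3.27 in the 15 pairs of the rest of the chromosome, where the ratio ran from 0.840 to 10.7. The ratio of 10.7 comes from the 17q24.1 peak that is in 2 pairs. The ranges overlap, and the difference was not tested. The 11 pairs ranked below those named scored 50.97 to 93.36 in replicate 1 and 112.9 to 671.37 in replicate 2.

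**Figure D4:**
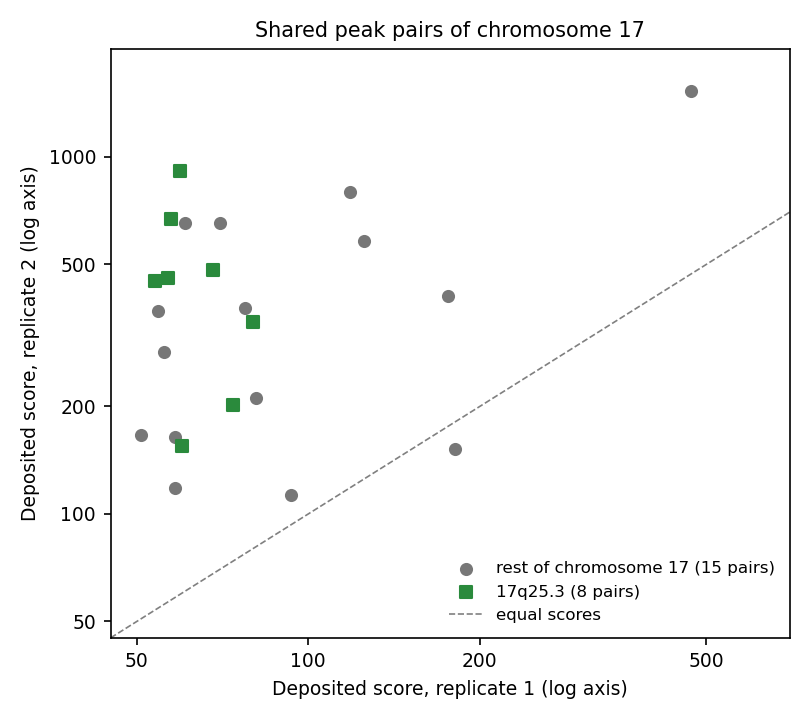
Deposited score in replicate 1 (horizontal, log axis) against replicate 2 (vertical, log axis) for the 23 shared pairs of chromosome 17. Pairs of 17q25.3 (green squares) lie between 53.73 and 80 in replicate 1 and reach 911.46 in replicate 2, and 1 pair of the rest (grey circles) lies below the dashed line of equal scores.

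Replicate 2 peaks without a counterpart in replicate 1 made up 167 of the 189 on chromosome 17 (88.4%). On the other chromosomes 3970 of 4407 were without one, a similar share. Counts by score rank were made for chromosome 17 only. Among its 20 highest by score, 10 were unshared, and among the highest 5, 4 were. The shared one of those 5 was the site in 17q21.33, and 0 of them lay in 17q25.3. The highest was in 17q21.31 (41399430 to 41401561, score 2738.31), the 9th highest of the whole replicate 2 list. The next was in 17q11.1 (25263012 to 25268429, score 1831.01), inside the centromere band, with the nearest replicate 1 peak 2010 kb away. The third was again in 17q21.31 (41381180 to 41382962, score 1624.3). This peak, the highest one and a small peak between them (score 77.7) formed the only run of 3 replicate 2 peaks spaced under 10 kb on the chromosome, 20.4 kb from end to end. With no control library analysed, whether these high unshared peaks reflect ASH1 binding was not tested.

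The same part of 17q21.31 held 2 unshared replicate 1 peaks. One, from 41463261 to 41465040 (score 68.66), ended 0.431 kb before a replicate 2 peak from 41465472 to 41467466 (score 905.74) and so counted as unshared by the 1 bp rule. The other replicate 1 peak (41560688 to 41562039) scored 60.34. No other unshared replicate 1 peak of the chromosome lay within 10 kb of a replicate 2 peak, and the median distance over the 15 was 337 kb.

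The highest unshared replicate 1 peaks were weak beside these. They lay in 17q25.3 (76593733 to 76594899, score 103.66, 40.1 kb from the nearest replicate 2 peak), in 17q21.32 (46956184 to 46957248, score 83.27) and in 17q12 (37497593 to 37498418, score 77.29). Of the 15 unshared replicate 1 peaks 10 scored under 70, a share near that of the whole list, where 568 of 905 did (62.8%).

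The centromere band, between the arms, held 0 replicate 1 and 3 replicate 2 peaks, all 3 in 17q11.1 and unshared. Besides the peak of score 1831.01 they scored 262.9 and 158.55. The widest replicate 2 peak of the chromosome lay just short of that band, in 17p11.2 (21902083 to 21907800, 5718 bp, score 220.03). The peak of score 1831.01 was the second widest at 5418 bp, and the third was in 17p13.3 (1211209 to 1215220, 4012 bp, shared, score 283.69 against 55.8 in replicate 1). The widest replicate 1 peaks were the sites in 17p13.3 and 17q21.33 named above, at 2291 and 2216 bp, and that of 17q25.3 from 79498178, at 1873 bp. All 3 were shared. Whether repeat sequence near the centromere plays a part in the wide replicate 2 peaks was not tested.

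Peaks of 17q25.3 were close together rather than high. In replicate 2 the median gap between neighbouring peaks was 49.1 kb in the band (quartiles 17.8 and 129 kb) and 268 kb in the rest of the chromosome (68.7 and 941 kb). The band held 9 of the 15 runs of replicate 2 peaks spaced under 10 kb, all of 2 peaks, and 39.2% of the replicate 2 peaks of the chromosome. Gaps under 10 kb were 12.3% of those in the band, 6.14% in the rest of the chromosome and 7.16% on the other chromosomes. Short gaps follow from the peak density given above and are not a separate property. Median score was 163.7 in the band (quartiles 91.97 and 239.4) and 139.8 elsewhere on the chromosome (91.8 and 227.2), and median width was 1098 bp against 1028 bp. The quartile ranges of both score and width overlap almost wholly. In replicate 1 the median gap was 334 kb in the band and 1105 kb elsewhere, with a median score of 59.8 against 65.9. Merging peaks closer than 10 kb left 17q25.3 at 6.06 times its share in replicate 1 and 8.0 times in replicate 2.

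Shared replicate 2 peaks scored higher than unshared ones inside and outside the band. Their median score was 453.7 against 151.5 in 17q25.3, and 326.6 against 120.95 in the rest of the chromosome. In replicate 1 the medians outside the band were 77.4 for shared and 60.55 for unshared peaks. Inside it the 8 shared peaks had a median of 59.8, and the 2 unshared ones scored 103.66 and 50.92, above and below all 8. No test was made of these scores.

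**Figure D5:**
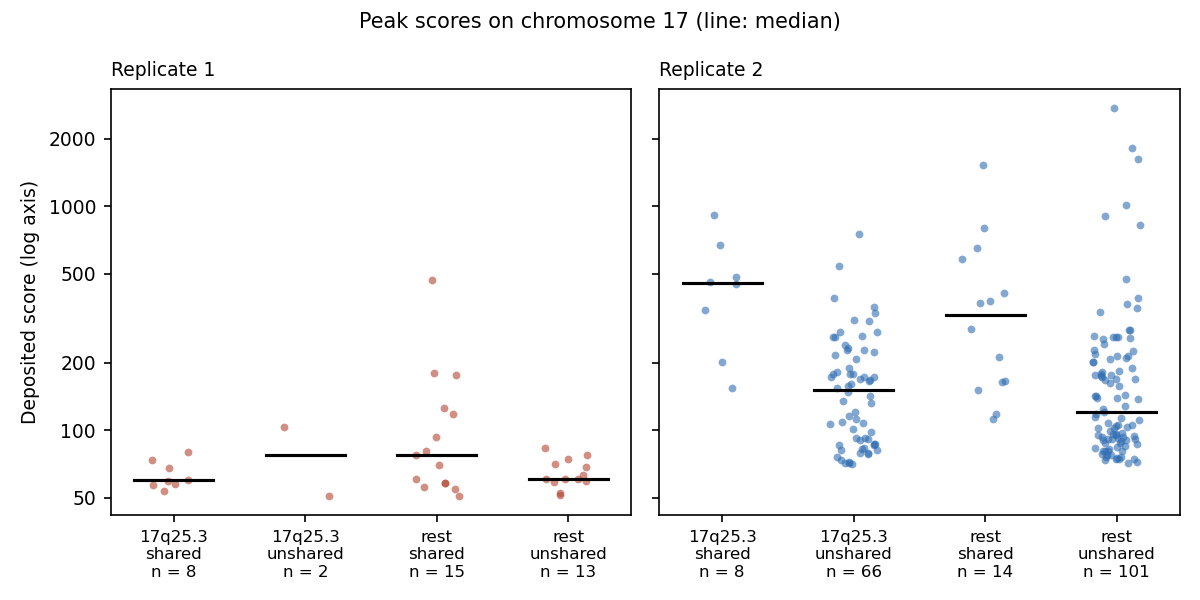
Deposited score of every chromosome 17 peak (log axis) by list, by place and by whether it is shared; lines mark medians. In replicate 2 the shared peaks have the higher median in both places (453.7 against 151.5 in 17q25.3), and the 3 highest scores are unshared peaks outside 17q25.3.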

How the data were processed

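ChIP-seq peaks of 2 ASH1 samples were used. The submitters' processing notes name BWA, MACS, hg19 and GRCh38. Their versions, the settings and any control were not given in the sources used here. Coordinates were taken as hg19, within whose chromosome ends all peaks lie, and are printed 1-based. The deposited score per peak is the authors' value (lowest 50.03 in replicate 1 and 70.02 in replicate 2). It was used to rank and filter within a list. Peaks were called by the authors per sample.

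Midpoints were counted per chromosome, arm, band (hg19 table of circlize 0.4.16) and 1 Mb bin. Counts on the 24 assembled chromosomes (905 and 4596 peaks) were compared with length, assembly gaps included, by two-sided exact binomial tests. Shares were compared by two-sided Fisher's exact tests. Benjamini-Hochberg adjustment ran over all regions of a kind, with calls at 0.05. Procedures were tested on simulated data. Simulated peaks were placed independently of each other, so this does not show how the tests behave with clustered peaks. Intervals (95%) cover counting error only.

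Chromosome 17, its zones and the tests were chosen with earlier results of these data known. Named are the 12 shared pairs highest by mean score percentile, the 3 highest unshared and the 3 widest peaks per list, and called bins. The HOXB band, other bands, the other 17q21.31 peaks and centromere peaks were added after values were seen. Alternatives covered score limits, merging, bins, lengths, overlap and list size. Software was scipy 1.17.1 and numpy 2.4.6 with pandas 2.3.3 on Python 3.11.15, R 4.3.3, and matplotlib 3.10.9 for plots.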

Additional observations from a re-analysis of the deposited data

How the results depend on the processing

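Leaving out 17q25.3, limiting replicate 2 to the size of replicate 1 for the folds, and merging peaks for 17q24.1 were chosen after seeing the data. In the exact binomial test, the chromosome 17 excess was no longer called in replicate 1 with scores of at least 70 (1.81 times), in its upper 50% by score (1.61) or without 17q25.3 (1.28). In replicate 2 it was lost without 17q25.3 (1.04) and in a list as short as that of replicate 1 (1.27). The mean of the lists moved to 1.69 with scores of at least 70, to 1.44 with lists of equal length, to 1.54 with length outside centromere, variable and stalk bands and to 1.16 without 17q25.3. The replicate 1 excess of 17q25.3 was not called with scores of at least 70 (4.67) or in the upper 50% (4.66), where fewer peaks are tested. Against its own chromosome its mean was 4.51. On that scale the long arm had a mean of 1.19, and the short arm was called lower in replicate 1 (0.368) and turned from 1.09 to 0.677 in replicate 2, since both the length and the peak total it is set against are then those of the chromosome. That total includes the peaks of 17q25.3. Without 17q25.3 the long arm had a mean of 1.36 and lost its replicate 2 call (1.05). Called bins went from 0 to 1 in replicate 1 with bins shifted by 0.5 Mb and with bins of 2 Mb, and from 8 to 5 in replicate 2 in its upper 50%. Leaving out a replicate gave 1.57 to 1.60 for chromosome 17, 0.616 to 1.09 for the short arm, 1.82 to 2.10 for the long arm and 5.80 to 8.45 for 17q25.3. The shares of overlapping peaks moved with list length, to 36.8% in replicate 1 and 43.3% in replicate 2 with lists of equal length, but did not pass Fisher's exact test against the other chromosomes under any of the 4 alternatives run. No paired analysis was possible because both samples belong to the same group. Depth is unknown and limits both lists.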

Other observations

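Bands that stain lightly with Giemsa, a class known for many genes and a high GC content, cover 51.4% of chromosome 17 and held 65.8% of its replicate 1 and 75.1% of its replicate 2 peaks. Without 17q25.3, itself a light band, they cover 47.5% of the remaining length and held 53.6% and 59.1% of the remaining peaks. Chromosome 17 has no band of the darkest class. The grey bands cover 44.2% of the chromosome and held 13 of 38 and 44 of 189 peaks. Stain classes were not counted on the other chromosomes, so these shares are not shown to be particular to chromosome 17.

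Set against genes in place of length, chromosome 17 was not rich in peaks. It carries 1169 of 20037 protein-coding genes of the RefSeq annotation of GRCh38 (5.83%), more than its 4.20% and 4.11% of the peaks. It had 3.25 replicate 1 peaks per 100 protein-coding genes against 4.52 over all chromosomes, and 16.2 replicate 2 peaks against 22.9. By this measure it ranked 16th and 18th of 24 chromosomes, while by length it ranked 6th and 5th. These are descriptions without a test.

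Chromosome 17 was also counted among the highest replicate 2 peaks at several cuts, as a description without a test. It held 7 of the 100 highest replicate 2 peaks, 1 of them in 17q25.3, then 30 of the highest 910, 12 of them in 17q25.3, and 189 of 4646, 74 of them in that band. Of the sequences of chromosome 17 that are not placed on it, 1 (gl000204) held a single replicate 2 peak with a score of 327.76, and replicate 1 had none there.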
